A study of Arabidopsis thaliana with 24 samples.

Results

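The poly(A)-binding protein (PAB) family of Arabidopsis thaliana was followed in polysome-bound mRNA, the messages recovered with several ribosomes on them. Its 6 members here were PAB2 (AT4G34110), PAB3 (AT1G22760), PAB4 (AT2G23350), PAB5 (AT1G71770), PAB7 (AT2G36660) and PAB8 (AT1G49760). They were taken by locus identifier from a table of counts for 32833 genes, with earlier results of these data known. All libraries came from whole seedlings aged 9 days, grown on MS medium with sucrose, of the exa1-1 mutant or of the wild type Col-0. The mutant carries a lesion in EXA1 (AT5G42950), which encodes a GYF-domain protein. In the salt experiment exa1-1 and wild-type seedlings were kept for 60 min in 200 mM NaCl or in MS medium without it, and in the heat experiment they were kept for 60 min at 39 °C or at 23 °C. Each of the 8 groups had 3 biological replicates described as independent, which gave 24 libraries with total counts of 17861136 to 20629439.

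Cytoplasmic poly(A)-binding proteins coat the tail of messenger RNA and touch the scaffold eIF4G at the cap, a contact that brings both ends of a message together and favours renewed initiation. Through a C-terminal domain they also bind partners that carry a short motif called PAM2, and in stressed plant cells they gather in stress granules with untranslated messages. In Arabidopsis PAB2, PAB4 and PAB8 are known as the widely expressed members, PAB3 and PAB5 as members of reproductive tissue, and PAB7 as a member of narrow expression.

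The members' sequences bear on whether their reads could be told apart, and a stretch of 75 coding bases is shown for that reason. It spans bases 811 to 885 of the PAB2 coding sequence and the matching bases of the others, from the RefSeq annotation of TAIR10.1, each written 5′ to 3′ on the coding strand. Capitals mark bases that are the same in PAB2, PAB4 and PAB8 and, in the other members, bases equal to these.
PAB2: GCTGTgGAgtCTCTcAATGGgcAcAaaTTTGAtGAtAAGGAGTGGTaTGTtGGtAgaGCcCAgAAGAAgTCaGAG
PAB4: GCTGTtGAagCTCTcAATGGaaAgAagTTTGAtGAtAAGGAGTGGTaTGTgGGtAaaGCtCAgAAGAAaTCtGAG
PAB8: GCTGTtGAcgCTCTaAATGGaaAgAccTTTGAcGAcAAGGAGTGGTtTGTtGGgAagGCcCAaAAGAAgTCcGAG
PAB5: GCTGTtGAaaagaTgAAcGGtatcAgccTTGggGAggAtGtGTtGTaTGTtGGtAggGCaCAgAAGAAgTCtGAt
PAB3: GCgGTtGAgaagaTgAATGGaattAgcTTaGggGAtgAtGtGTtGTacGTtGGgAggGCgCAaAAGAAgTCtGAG
PAB7: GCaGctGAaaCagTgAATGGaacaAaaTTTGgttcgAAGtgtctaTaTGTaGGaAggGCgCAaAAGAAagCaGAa
The abundant members PAB2, PAB4 and PAB8 shared 55 of these 75 bases. PAB4 matched PAB2 at 63 positions, PAB8 at 58, PAB5 at 50, PAB3 at 49 and PAB7 at 45. The stretch was placed around the longest run of identical bases shared by PAB2 and PAB4, so it cannot rank PAB4 as closest to PAB2. Over the whole coding sequence PAB3 and PAB5 were the closest pair, with 75.75% identity, followed by PAB2 and PAB8 with 73.65% and PAB2 and PAB4 with 69.96%. PAB7 was 60.73% to 61.87% identical to the others. The longest run of identical bases between any pair was 26, in PAB3 and PAB5, and the longest shared by PAB2 and PAB4 was 23. None of the windows of 50 bases along the spliced members (0 of 2704 for PAB2) occurred elsewhere in the genome, so no member is a near-identical copy of another.

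The 250 bases before the annotated start of PAB2, PAB4 and PAB8 are printed because these genes carry the counts of the family and were called together in most comparisons below. They were read from the TAIR10.1 genome on the plus strand, at chr4:16336041-16336290 for PAB2, chr2:9942665-9942914 for PAB4 and chr1:18416224-18416473 for PAB8. Capitals mark matches to the motifs searched.
PAB2 promoter: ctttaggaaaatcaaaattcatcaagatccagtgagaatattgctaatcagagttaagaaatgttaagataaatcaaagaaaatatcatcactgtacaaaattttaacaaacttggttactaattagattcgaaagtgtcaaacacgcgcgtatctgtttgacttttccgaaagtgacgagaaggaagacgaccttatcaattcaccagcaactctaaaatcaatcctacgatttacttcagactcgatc
PAB4 promoter: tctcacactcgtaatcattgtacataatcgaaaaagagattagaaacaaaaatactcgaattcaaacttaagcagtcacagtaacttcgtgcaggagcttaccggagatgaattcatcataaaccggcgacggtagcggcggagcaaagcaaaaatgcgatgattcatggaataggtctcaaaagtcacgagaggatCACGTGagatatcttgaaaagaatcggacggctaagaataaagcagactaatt
PAB8 promoter: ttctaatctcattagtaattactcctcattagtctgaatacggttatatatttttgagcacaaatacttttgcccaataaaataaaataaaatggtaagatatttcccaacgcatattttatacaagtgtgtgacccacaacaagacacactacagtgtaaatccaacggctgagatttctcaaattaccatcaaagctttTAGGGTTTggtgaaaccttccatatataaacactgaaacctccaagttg
Searched on both strands were the telo-box AAACCCTA, the site II element TGGGCC, the heat shock element core GAANNTTC and the abscisic acid response core ACGTG. PAB4 held ACGTG on both strands, at 53 and 52 bases before the start, as an overlapping palindrome. Of 27443 promoters of this length 22.9% held ACGTG on either strand, and the share with the palindrome was not counted. PAB8 held the telo-box once, at 49 bases before the start, as did 4.49% of all promoters. PAB2 held none of the 4 motifs, and the letters of site II and of the heat shock core were in none of the 6 members' windows, against 13.7% and 9.55% of all promoters. These matches are descriptions of letters and were not tested for activity.

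Checks of the libraries come first. EXA1 in exa1-1, as a share of its wild-type level, was 7.28% in NaCl and 14.8% in MS, and 8.5% at 39 °C against 7.11% at 23 °C, and no exa1-1 library overlapped a wild-type library. Markers of leaf (4 genes) and root (5 genes) were present in all libraries. The pollen gene VGD1 was at 0 in 24 of 24 libraries and the pollen gene PPME1 in 20. Of the flower genes, AP3 was at 0 in 9 libraries, AG in 5 and PI in 0. Summed FPKM (counts relative to transcript length and library total) of the root markers was 17.4 to 17.8 in exa1-1 in NaCl against 94.0 to 95.5 in exa1-1 in MS, and 18.4 to 19.9 in wild type in NaCl against 68.0 to 72.7 in wild type in MS. At 39 °C it was 10.1 to 11.7 in exa1-1 against 63.1 to 68.0 at 23 °C, and 8.48 to 9.52 in wild type against 51.1 to 56.1 at 23 °C. The summed leaf markers were also lower in exa1-1 than in wild type, at 7520 to 7920 against 10200 to 10800 FPKM in MS. The 3 seed markers, all storage protein genes, summed to 6.47 to 7.57 FPKM in exa1-1 at 39 °C against 0.954 to 0.963 in wild type at 39 °C, and to 12.5 to 13 in exa1-1 at 23 °C against 3.1 to 4.47 in wild type at 23 °C. In NaCl they were at 0.709 to 1.38 in exa1-1 against 0.704 to 0.813 in wild type, and in MS at 1.01 to 1.11 in exa1-1 against 1.31 to 2.11 in wild type. These markers moved with both stresses and with genotype, and their part in the results below was not tested.

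PAB2, PAB4 and PAB8 made up nearly all of the family's message on polysomes, and PAB3, PAB5 and PAB7 were close to absent. Over all libraries PAB2 had 307752 reads, PAB4 109168 and PAB8 89796, against 286 for PAB7, 238 for PAB5 and 19 for PAB3. By mean FPKM, a level per transcript length, PAB2 ranked 412 of 27683 genes, PAB4 1245 and PAB8 1602, whereas PAB7 ranked 21591, PAB5 22309 and PAB3 25727. PAB2 was the highest member in all 8 groups. PAB4 came next except in exa1-1 in NaCl, where PAB8 at 81.4 ± 0.151 FPKM and PAB4 at 77.2 ± 3.56 FPKM (SD, n = 3) had ranges that overlapped. The gap between PAB4 and PAB8 was also narrow in wild type in NaCl, with a lowest PAB4 library of 69.9 FPKM and a highest PAB8 library of 69.2 FPKM.

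The order of the groups by FPKM was much the same for the abundant members, with exa1-1 in MS at the top and wild type at 39 °C at the bottom. PAB2 averaged 346.5 ± 7.43 FPKM in exa1-1 in MS, 316 ± 13.6 in exa1-1 at 23 °C, 292.5 ± 2.66 in wild type in MS and 248 ± 18.5 in wild type at 23 °C, and then 231 ± 7.47 in wild type in NaCl, 221 ± 15.4 in exa1-1 in NaCl, 204 ± 7.53 in exa1-1 at 39 °C and 161 ± 2.55 in wild type at 39 °C. Neighbours in this order overlapped from wild type at 23 °C down to exa1-1 at 39 °C, and the other neighbours did not. PAB4 averaged 157 ± 3.13 FPKM in exa1-1 in MS, 130 ± 4.05 in wild type in MS, 119 ± 2.66 in exa1-1 at 23 °C, 82.0 ± 5.08 in wild type at 23 °C, 77.2 ± 3.56 in exa1-1 in NaCl, 72.6 ± 2.37 in wild type in NaCl, 71.3 ± 0.934 in exa1-1 at 39 °C and 51.7 ± 1.44 in wild type at 39 °C. For PAB4 the ranges of wild type at 23 °C and exa1-1 in NaCl overlapped, as did those of wild type in NaCl and exa1-1 at 39 °C. PAB8 averaged 104.5 ± 3.28 FPKM in exa1-1 in MS, 98.7 ± 1.76 in exa1-1 at 23 °C, 90.3 ± 0.361 in wild type in MS, 81.4 ± 0.151 in exa1-1 in NaCl, 72.0 ± 4.78 in wild type at 23 °C, 66.9 ± 2.15 in wild type in NaCl, 55.2 ± 0.722 in exa1-1 at 39 °C and 45.2 ± 1.14 in wild type at 39 °C. Of its neighbours, the ranges of wild type at 23 °C and wild type in NaCl were the ones that overlapped. FPKM is relative to the library total, of which a few abundant genes held a larger part at 39 °C, and the low place of the 39 °C groups depends on that scale.

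The division of the family among its members changed with salt. PAB4 held 20.3% ± 0.0867 of the summed FPKM of the 6 genes in exa1-1 in NaCl against 25.8% ± 0.279 in exa1-1 in MS, and 19.6% ± 0.645 in wild type in NaCl against 25.4% ± 0.691 in wild type in MS (SD, n = 3). PAB8 held more in NaCl than in MS. Its share was 21.5% ± 1.03 against 17.2% ± 0.181 in exa1-1, and 18.0% ± 0.226 against 17.6% ± 0.0205 in wild type. PAB2 also held more in NaCl than in MS. Its share was 58.0% ± 1.09 against 56.9% ± 0.147 in exa1-1, and 62.3% ± 0.469 against 56.9% ± 0.660 in wild type. These shares do not depend on how libraries are scaled, and the groups named did not overlap. With heat the widest shift was smaller than that with salt. It was that of PAB2 in exa1-1, with 61.6% ± 1.14 at 39 °C against 59.2% ± 0.834 at 23 °C.

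**Figure D1:**
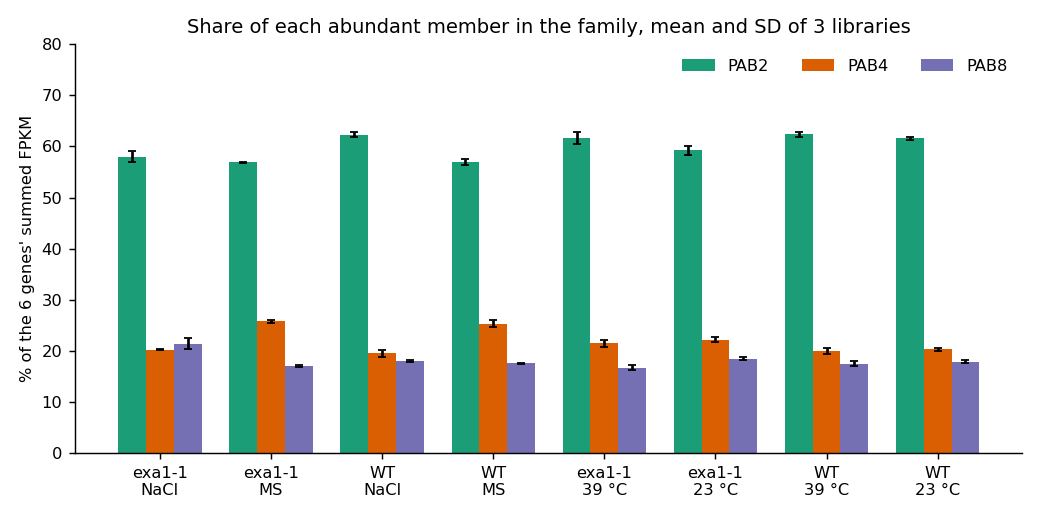
Share of PAB2, PAB4 and PAB8 in the summed FPKM of the 6 members, in percent, for the 8 groups (bars, mean of 3 libraries; whiskers, SD). PAB2 held 56.9% to 62.4% in every group, PAB4 was lower in NaCl than in MS in both genotypes, and PAB8 reached 21.5% in exa1-1 in NaCl.

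Tests were run in edgeR on the counts of all genes, and the threshold for a call is 0.05 for p adjusted by Benjamini and Hochberg over all genes tested. Levels in the comparisons are CPM, read counts relative to library size scaled by TMM within an experiment, and differences are log2 fold changes with their standard error. No total RNA was analysed here, so more transcript and more ribosomes on the same transcript cannot be told apart, nor, in whole seedlings, can fewer cells of a kind and less RNA per cell. The low-count filter kept 5 of the 6 members in every fit, and PAB3 was tested in none.

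With salt the polysome-bound message of all 3 abundant members fell in both genotypes, and that of PAB4 by the most. In wild type 3 of the 5 tested members were called, all lower, against 71.8% of all 21453 genes tested that were called (35.4% lower). In exa1-1 4 of 5 were called, 3 lower and 1 higher, against 73.1% of all genes. With so many genes called, the counts of members are close to the background, and the values themselves carry the description.

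PAB4, one of the widely expressed members, had 203, 202 and 217 CPM in exa1-1 in NaCl against 386, 377 and 362 CPM in exa1-1 in MS. In wild type it had 195, 206 and 206 CPM in NaCl against 324, 322 and 339 CPM in MS. All NaCl libraries were below all MS libraries in each genotype, and the NaCl libraries of both genotypes lay close together. The log2 fold change of PAB4 was −0.85 ± 0.0425 (SE) in exa1-1 (adjusted p = 3.86e-21) and −0.70 ± 0.0427 in wild type (adjusted p = 4.37e-18), so it fell by 44.7% in the mutant and fell by 38.3% in wild type. In the wild type 16.8% of all genes tested had a lower log2 fold change than PAB4.

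PAB2, the most abundant member, had 609, 605 and 678 CPM in exa1-1 in NaCl against 903, 872 and 859 CPM in exa1-1 in MS. In wild type it had 676, 711 and 666 CPM in NaCl against 782, 793 and 775 CPM in MS. The groups did not overlap in either genotype, and the distance was wider in the mutant. PAB2 changed by −0.48 ± 0.0424 in exa1-1 (adjusted p = 3.81e-13) and by −0.19 ± 0.0423 in wild type (adjusted p = 9.41e-05).

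PAB8, the closest relative of PAB2 by coding sequence, had 225, 223 and 222 CPM in exa1-1 in NaCl against 264, 249 and 249 CPM in exa1-1 in MS. In wild type PAB8 had 189, 197 and 184 CPM in NaCl against 231, 232 and 232 CPM in MS. The salt libraries were again below the MS libraries without overlap. PAB8 changed by −0.19 ± 0.0405 in exa1-1 (adjusted p = 9.36e-05) and by −0.29 ± 0.0409 in wild type (adjusted p = 6.74e-08). On library totals the median of all genes was −0.20 in exa1-1 and −0.15 in wild type, against −0.02 and 0.00 after TMM, and in exa1-1 27.3% of all genes were called higher and 48.3% lower, against 35.9% and 37.2% after TMM. The values of PAB2 were then −0.65 in exa1-1 and −0.34 in wild type, those of PAB8 −0.36 and −0.43, and those of PAB4 −1.03 and −0.84, all still called.

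**Figure D2:**
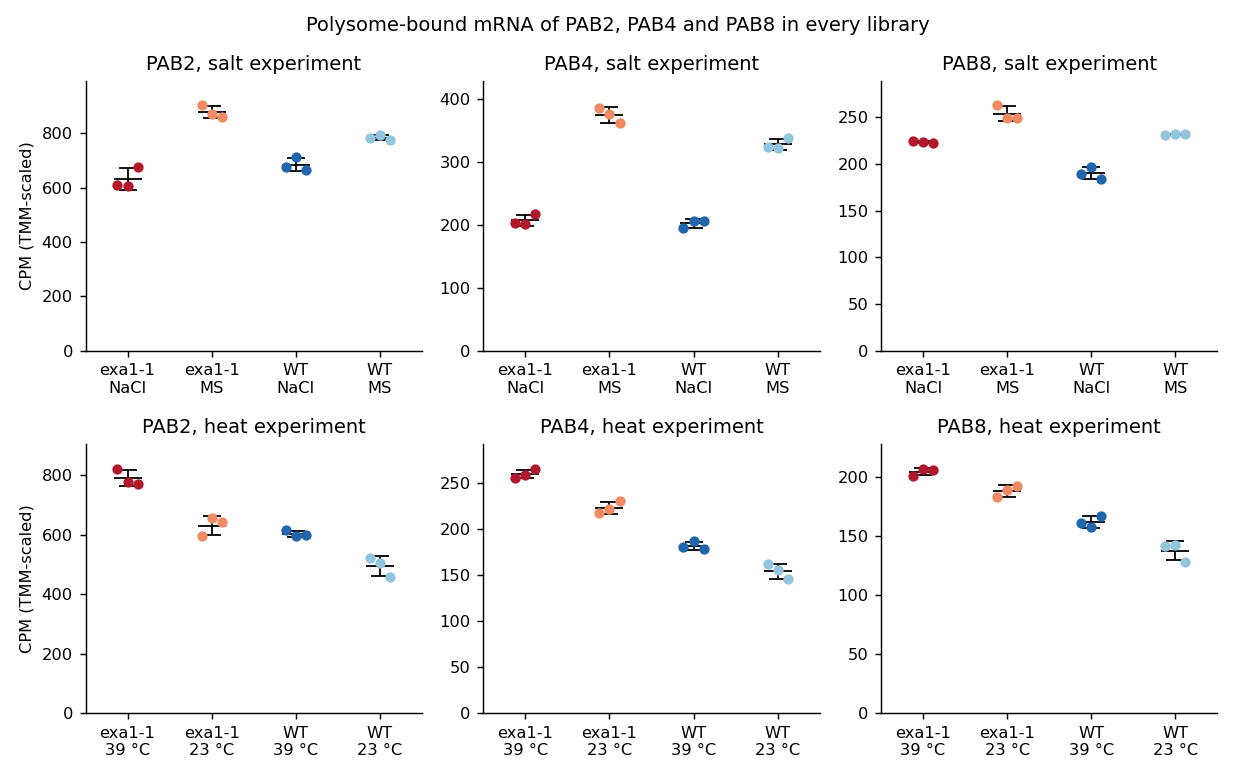
CPM after TMM scaling within each experiment of PAB2, PAB4 and PAB8 (points, 1 per library; black marks and whiskers, mean and SD of 3), with the salt experiment above and the heat experiment below. NaCl libraries lie below MS libraries in both genotypes; 39 °C libraries lie above 23 °C libraries on this scale, and below them when scaled on library totals alone.

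Whether salt acted on the family alike in mutant and wild type was tested with the salt by genotype interaction, in which 2 of 5 tested members were called (1 higher, 1 lower) against 20% of all genes. The fall of PAB2 was larger in exa1-1, by −0.28 ± 0.0599 on the log2 scale (adjusted p = 0.000485), and this call held without each of the 12 libraries in turn. For PAB4 the difference was −0.16 with a 95% interval of −0.28 to −0.04 (adjusted p = 0.0587), and for PAB8 it was 0.10 with an interval of −0.02 to 0.22 (adjusted p = 0.237). Neither passed, and the intervals do not show that salt acted alike on them in both genotypes. PAB4 did pass under several alternatives, on library totals (−0.18, adjusted p = 0.0161), in limma on log2(FPKM + 1) (adjusted p = 0.0412) and on log2(FPKM + 0.1) (adjusted p = 0.0443), with the replicate block (adjusted p = 0.0483), and without wild type in NaCl replicate 1 (adjusted p = 0.0459), exa1-1 in MS replicate 3 (adjusted p = 0.00372) or exa1-1 in NaCl replicate 3 (adjusted p = 0.024), and leaving out the other libraries it did not. PAB5 was the other called member, by 1.85 ± 0.652 (adjusted p = 0.0387), on low counts given further below. The PAB5 call was lost on leaving out any of 8 of the 12 libraries (adjusted p up to 0.183), with all 24 libraries in one fit (adjusted p = 0.0784) and in both limma fits. DESeq2 called 1 member in this interaction, PAB2, and gave PAB5 no adjusted p.

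In heat PAB2, PAB4 and PAB8 were higher at 39 °C than at 23 °C after TMM scaling, but lower when scaled on library totals alone. In wild type 3 of 5 tested members were called (all higher after TMM) against 80.5% of all 20923 genes tested, and in exa1-1 3 of 5 were called (all higher after TMM) against 79.4% of all genes (38% higher and 41.4% lower, or 13.8% and 74.9% on library totals). The 50 most abundant genes held 26.5% of all counts in exa1-1 at 39 °C against 12.5% at 23 °C, and 25.7% in wild type at 39 °C against 13.5% at 23 °C. On library totals the median of all genes was −1.05 in exa1-1 and −1.0 in wild type, against −0.10 in both after TMM.

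PAB2 had 820, 777 and 771 CPM in exa1-1 at 39 °C against 595, 655 and 641 CPM at 23 °C. In wild type it had 614, 596 and 598 CPM at 39 °C against 520, 506 and 458 CPM at 23 °C. The groups did not overlap on this TMM scale. PAB2 changed by 0.32 ± 0.0401 in exa1-1 (adjusted p = 3.35e-10) and by 0.28 ± 0.0403 in wild type (adjusted p = 1.20e-08), but by −0.63 in exa1-1 and −0.62 in wild type on library totals.

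PAB4 had 255, 258 and 264 CPM in exa1-1 at 39 °C against 217, 221 and 230 CPM at 23 °C, and 181, 187 and 178 CPM in wild type at 39 °C against 161, 155 and 145 CPM at 23 °C. PAB8 had 202, 207 and 206 CPM in exa1-1 at 39 °C against 183, 190 and 193 CPM at 23 °C, and 162, 158 and 167 CPM in wild type at 39 °C against 142, 143 and 128 CPM at 23 °C. None of these pairs of groups overlapped after TMM. PAB4 changed by 0.22 ± 0.0419 in exa1-1 (adjusted p = 5.12e-06) and by 0.24 ± 0.0431 in wild type (adjusted p = 1.69e-06), against −0.74 and −0.67 on library totals. PAB8 changed by 0.12 ± 0.0435 in exa1-1 (adjusted p = 0.0114) and by 0.24 ± 0.0445 in wild type (adjusted p = 4.38e-06), against −0.84 and −0.67 on library totals. The PAB8 call in exa1-1 was lost without exa1-1 at 23 °C replicate 1 (log2 fold change 0.08, adjusted p = 0.138) or replicate 2 (0.10, adjusted p = 0.0589). Under both scalings the abundant members lay above the median of all genes.

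**Figure D3:**
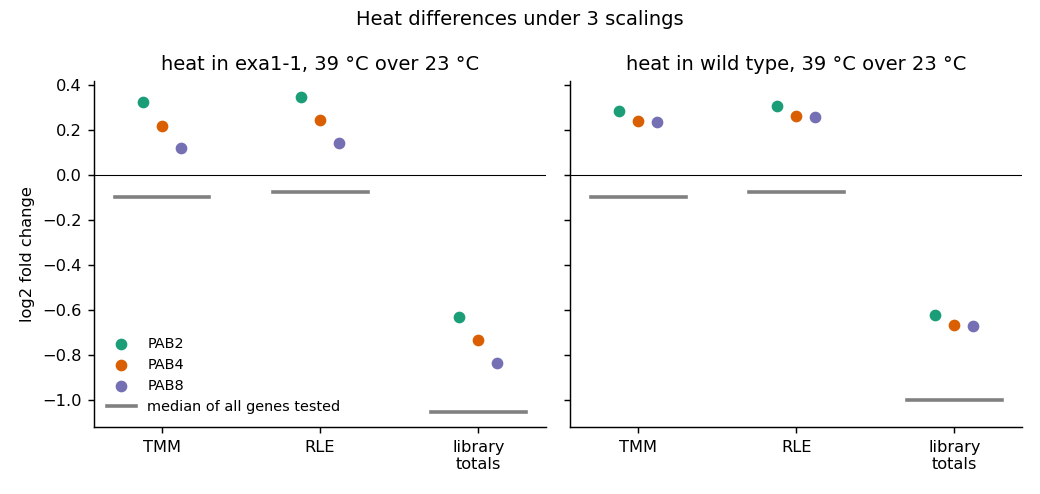
Log2 fold change of 39 °C over 23 °C for PAB2, PAB4 and PAB8 (points) and the median of all genes tested (grey bars) under TMM, RLE and library totals, exa1-1 left and wild type right. The members are above 0 under TMM and RLE and below 0 under library totals, and above the median of all genes under each.

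The heat by genotype interaction, which asks whether heat acted differently in the mutant, was called for 0 of 5 tested members against 16.9% of all genes (8.78% higher and 8.1% lower, or 6.63% and 10.8% on library totals). DESeq2 also called 0, but gave PAB5 and PAB7 no adjusted p, and 0 members had an unadjusted edgeR p under 0.05. The differences were 0.04 for PAB2 with a 95% interval of −0.07 to 0.15, −0.02 for PAB4 with an interval of −0.14 to 0.10, and −0.12 for PAB8 with an interval of −0.24 to 0.01. Without wild type at 23 °C replicate 1 PAB8 was called, at −0.16 (adjusted p = 0.046).

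The exa1-1 mutant carried more PAB2, PAB4 and PAB8 message on polysomes than wild type in 3 of the 4 conditions, and the differences were widest for PAB4 at 23 °C and 39 °C. In MS 3 of 5 tested members were called, all higher in exa1-1, against 36% of all genes (16.5% higher and 19.5% lower, or 26.6% and 13.8% on library totals). At 23 °C 3 of 5 were called, all higher, against 34.8% of all genes (17.1% higher), and at 39 °C 3 of 5, all higher, against 28.8% (15.2% higher and 13.7% lower, or 11.9% and 17% on library totals). In NaCl 3 of 5 were called, 2 higher and 1 lower, against 32.4% of all genes (15.3% higher and 17.1% lower, or 21.5% and 13.4% on library totals).

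In MS the 3 exa1-1 libraries of each abundant member, with the values given above, were all above the 3 wild-type libraries. The log2 fold changes were 0.17 ± 0.0422 for PAB2 (adjusted p = 0.00198), 0.19 ± 0.0417 for PAB4 (adjusted p = 0.000301) and 0.13 ± 0.0403 for PAB8 (adjusted p = 0.00937). The PAB8 call was lost without exa1-1 in MS replicate 1 (0.10, adjusted p = 0.0691). At 23 °C PAB4 averaged 223 ± 6.55 CPM in exa1-1 and 154 ± 8.11 CPM in wild type (SD, n = 3 each), a fold of 1.45, or 0.53 ± 0.0417 on the log2 scale (adjusted p = 1.58e-15). In the ordering of all genes 95.3% had a lower log2 fold change than PAB4 in this comparison. PAB8 averaged 189 ± 4.85 CPM in exa1-1 and 138 ± 8.03 CPM in wild type at 23 °C, a difference of 0.45 ± 0.0430 (adjusted p = 9.58e-13). PAB2 averaged 630 ± 31.5 CPM in exa1-1 and 495 ± 32.5 CPM in wild type at 23 °C, a difference of 0.35 ± 0.0399 (adjusted p = 4.19e-10).

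At 39 °C the same members were again higher in the mutant without overlap. PAB4 averaged 259 ± 4.62 CPM in exa1-1 and 182 ± 4.33 CPM in wild type, a difference of 0.51 ± 0.0433 (adjusted p = 3.54e-14). PAB2 averaged 789 ± 26.7 CPM in exa1-1 and 603 ± 9.72 CPM in wild type, a difference of 0.39 ± 0.0405 (adjusted p = 4.16e-11). PAB8 averaged 205 ± 2.83 CPM in exa1-1 and 162 ± 4.73 CPM in wild type, a difference of 0.34 ± 0.0450 (adjusted p = 2.62e-08). Scaling on library totals kept these directions, and it moved the median of all genes by less than 0.1 in every comparison of genotypes.

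In NaCl the members parted. PAB8 was higher in exa1-1, with 223 ± 1.16 CPM against 190 ± 6.58 CPM in wild type, a difference of 0.23 ± 0.0411 (adjusted p = 1.96e-05). PAB4 averaged 207.5 ± 8.58 CPM in exa1-1 and 202 ± 6.54 CPM in wild type, a difference of 0.04 with a 95% interval of −0.05 to 0.12 (adjusted p = 0.567). PAB2 averaged 631 ± 40.9 CPM in exa1-1 and 684.5 ± 23.7 CPM in wild type, with ranges that overlapped, a difference of −0.12 ± 0.0425 (adjusted p = 0.0292). The PAB2 call was lost under library totals (−0.07, adjusted p = 0.197), under DESeq2 (−0.11, adjusted p = 0.057), in both limma fits (adjusted p = 0.261 and 0.26) and without wild type in NaCl replicate 1 (−0.13, adjusted p = 0.0526) or 2 (−0.09, adjusted p = 0.175), or exa1-1 in NaCl replicate 1 (−0.09, adjusted p = 0.144) or 2 (−0.09, adjusted p = 0.185).

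**Figure D4:**
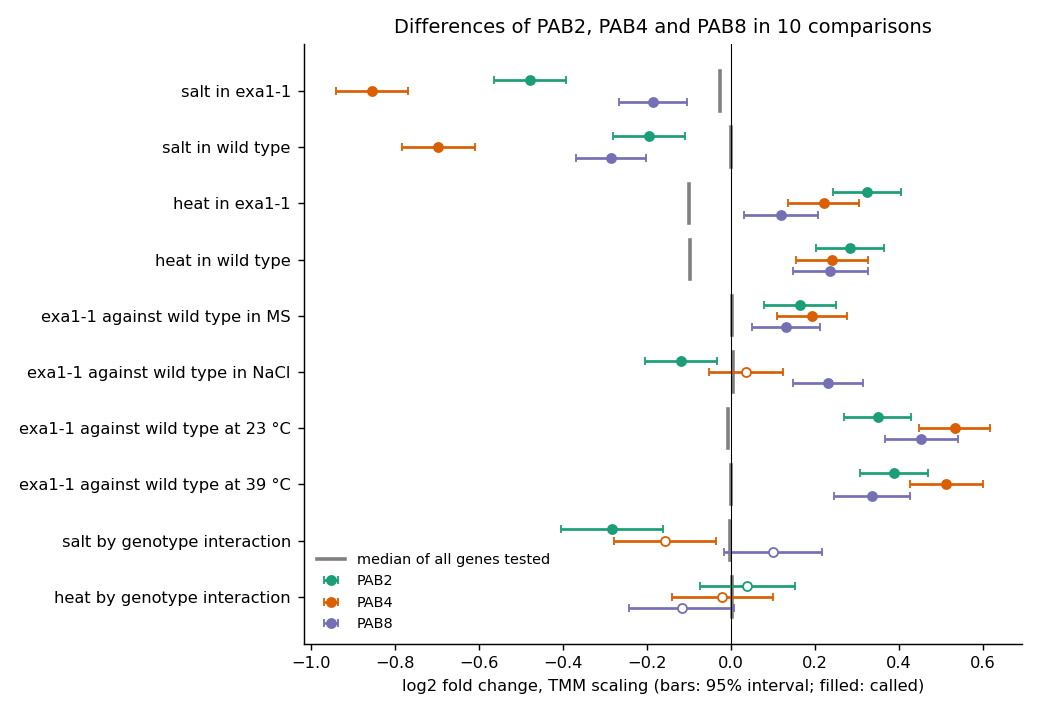
Log2 fold changes after TMM scaling of PAB2, PAB4 and PAB8 in 10 comparisons (points; bars, 95% interval; filled points were called; grey marks, median of all genes tested). Salt differences lie below 0, the genotype differences at 23 °C and 39 °C lie above 0, and the heat differences lie above 0 here but below 0 on library totals alone.

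The unstressed controls of both experiments were compared in a fit of all 24 libraries. In wild type 2 of 5 tested members were called, both lower at 23 °C than in MS, against 66.1% of all 21917 genes tested (33.3% higher and 32.8% lower, or 23.8% and 45.7% on library totals). PAB4 had 202, 194 and 182 CPM at 23 °C against 259, 257 and 271 CPM in MS, a difference of −0.45 ± 0.0421 (adjusted p = 1.31e-14), and PAB8 differed by −0.11 ± 0.0418 (adjusted p = 0.0222). The PAB8 call was lost without wild type at 23 °C replicate 3 (−0.06, adjusted p = 0.191). On library totals PAB2 and PAB5 were called too, at −0.24 (adjusted p = 1.1e-06) and −1.50 (adjusted p = 0.0306), against −0.02 and −1.28 after TMM. PAB5 was also called without wild type in MS replicate 3 (−1.73, adjusted p = 0.0146) or wild type at 23 °C replicate 2 (−2.74, adjusted p = 0.0055). In exa1-1 3 of 5 were called, 2 higher and 1 lower, against 66.7% of all genes (33.1% higher and 33.6% lower, or 20.3% and 51.8% on library totals). PAB2 differed by 0.18 ± 0.0426 (adjusted p = 0.000200) and PAB8 by 0.23 ± 0.0412 (adjusted p = 1.99e-06), and both turned on library totals, to −0.13 and −0.08. PAB4 in exa1-1 differed by −0.10 ± 0.0414 (adjusted p = 0.0369), a call lost on leaving out any of 4 of the 6 libraries (adjusted p up to 0.153). It was lost too when the compared groups alone were fitted (adjusted p = 0.09), whereas on library totals the value was −0.41 (adjusted p = 5.26e-14). The controls were handled in separate experiments, so medium, handling and day cannot be told apart.

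In a comparison added after the data were seen, the difference between the genotypes was itself larger at 23 °C than in MS for 3 of 5 tested members, against 28.6% of all genes called (16.3% higher and 12.3% lower, or 11% and 17.9% on library totals). The excess was 0.35 ± 0.0590 for PAB4 (adjusted p = 3.35e-06), 0.33 ± 0.0587 for PAB8 (adjusted p = 7.86e-06) and 0.20 ± 0.0603 for PAB2 (adjusted p = 0.00969). The PAB2 call was lost on library totals, at 0.11 (adjusted p = 0.183), and in both limma fits, at 0.11 in each (adjusted p = 0.263 and 0.289). After TMM each call held without each of the 12 libraries in turn.

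PAB5, PAB7 and PAB3 stayed at a few reads per library. PAB5, a member known from flowers and pollen, had 23, 29 and 23 reads in exa1-1 in NaCl against 19, 9 and 8 in exa1-1 in MS, and 7, 4 and 11 in wild type in NaCl against 17, 19 and 3 in wild type in MS. The mutant's NaCl libraries were above all other libraries of the salt experiment, and the other groups overlapped. PAB5 was higher in exa1-1 in NaCl than in exa1-1 in MS by 1.23 ± 0.407 (adjusted p = 0.00716) and than in wild type in NaCl by 1.71 ± 0.451 (adjusted p = 0.00291). The first of these calls was lost in limma on log2(FPKM + 0.1), at 0.88 (adjusted p = 0.0607). In wild type salt gave −0.63 with a 95% interval of −1.66 to 0.40 (adjusted p = 0.269). Without wild type in MS replicate 3, which had 3 reads, the value was −1.07 and was called (adjusted p = 0.0489). PAB5 passed the low-count filter in the salt fit. The minimum count of 10 was reached in exa1-1 in NaCl, the group where PAB5 was high. It was also reached with 17 and 19 reads in wild type in MS, 19 in exa1-1 in MS and 11 in wild type in NaCl. A filter of 1 CPM in 6 libraries removed PAB5. In the heat experiment it had 3, 7 and 11 reads in exa1-1 at 39 °C, 3, 16 and 6 in exa1-1 at 23 °C, 3, 2 and 2 in wild type at 39 °C and 1, 10 and 2 in wild type at 23 °C, and no heat comparison called it.

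PAB7 had 7, 14 and 22 reads in exa1-1 in NaCl against 6, 15 and 23 in exa1-1 in MS, and 11, 13 and 16 in wild type in NaCl against 22, 13 and 15 in wild type in MS. In heat it had 7, 2 and 9 in exa1-1 at 39 °C against 13, 11 and 3 at 23 °C, and 14, 9 and 11 in wild type at 39 °C against 10, 13 and 7 at 23 °C. PAB7 was called in none of the comparisons under the fits described above, and its largest difference was heat in wild type, at 1.06 with a 95% interval of 0.00 to 2.12 after TMM (adjusted p = 0.0603) and 0.17 on library totals (adjusted p = 0.766). This difference was called at 1.07 with all 24 libraries in one fit (adjusted p = 0.0474) and at 1.06 in a fit of the compared groups alone (adjusted p = 0.0329). PAB3 had 1, 1 and 1 reads in exa1-1 in MS and 3, 0 and 4 in wild type in MS, and 0 in all 6 NaCl libraries. A count of 0 over the 3 libraries allows up to 3 reads, or 0.0548 CPM in exa1-1 in NaCl and 0.0545 CPM in wild type in NaCl, by counting error alone, against 3 reads over the group in exa1-1 in MS and 7 in wild type in MS. PAB3 was not tested. In heat PAB3 had at most 3 reads in any library.

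**Figure D5:**
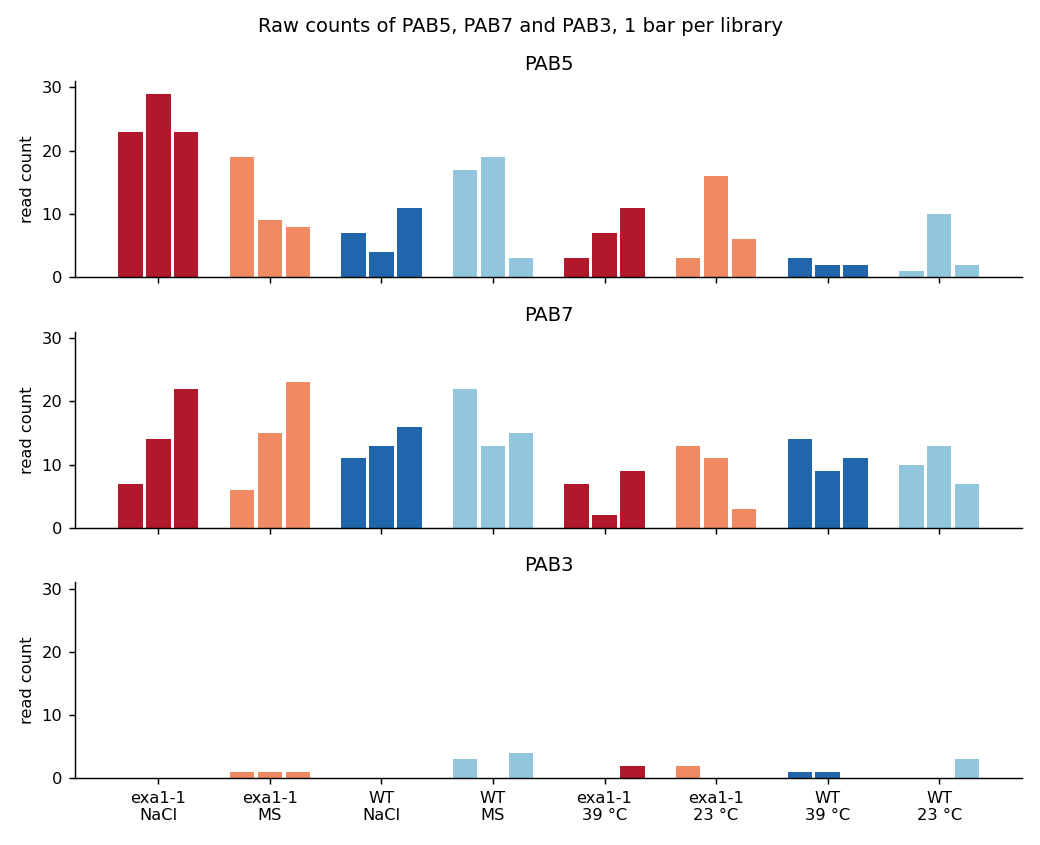
Raw read counts of PAB5, PAB7 and PAB3, with 1 bar per library, on a common axis for the 8 groups. PAB5 reached 23 to 29 reads in exa1-1 in NaCl and at most 19 in any other group, and PAB3 had 0 to 4 reads.

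Genes on the opposite strand overlap PAB4, PAB5 and PAB7, and the strand setting of the counting is not given in the sources used here. AT2G23348, opposite PAB4, had 3 to 37 reads per library, few beside the 2356 to 7571 of PAB4. AT1G71760, opposite PAB5, had 30 reads in exa1-1 in NaCl against 51 in exa1-1 in MS, whereas PAB5 had 75 against 36. In wild type AT1G71760 had 40 reads in NaCl against 53 in MS, and PAB5 22 against 39. AT2G36650, opposite PAB7, had 1453 reads in exa1-1 in NaCl against 220 in exa1-1 in MS and 1547 in wild type in NaCl against 241 in wild type in MS, whereas PAB7 had 43 against 44 and 40 against 50. The part of these genes in the counts of PAB5 and PAB7 was not tested.

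The genes around the family were described with 9 lists, each to be read against the share of all genes called. Salt in wild type called 36.5% of all genes higher and 35.4% lower after TMM, and 28.8% higher and 44.4% lower on library totals (73.1% called). Heat in wild type called 38.2% higher and 42.3% lower after TMM, and 14.4% higher and 74% lower on library totals (88.3% called). Of 2 further poly(A)-binding genes, PAB6 was tested and AT1G34140 was not. PAB6 was lower at 39 °C than at 23 °C in wild type, by −2.51 ± 0.410 (adjusted p = 2.71e-07) and by −3.40 on library totals, and salt in wild type gave 0.17 (adjusted p = 0.631). Of the 3 nuclear poly(A)-binding proteins, salt in wild type called 1 higher and 1 lower (median 0.09, all genes 0.00), and 0 and 1 on library totals. Heat called all 3 higher after TMM and all 3 lower on library totals in wild type, with PABN1 at 0.22 ± 0.0683 (adjusted p = 0.00369) and at −0.69 on library totals.

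Proteins with a PAM2 motif, which dock on the C-terminal domain of PAB proteins, moved in both directions. Salt in wild type called 7 of 12 tested higher and 2 lower (median 0.20), and on library totals 3 higher and 3 lower. CID4, a relative of ataxin-2, rose by 0.93 ± 0.0570 (adjusted p = 4.50e-18) and AT4G14270, annotated as a polyadenylate-binding protein interacting protein, by 0.85 ± 0.0526 (adjusted p = 1.36e-17), whereas CID5 fell by 2.51 (adjusted p = 0.000234). In heat 5 of 12 were higher and 4 lower in wild type after TMM, and 1 higher and 10 lower on library totals, where 74% of all genes were lower. AT4G14270 was higher at 39 °C by 2.68 ± 0.0544 (adjusted p = 1.19e-29), and by 1.77 on library totals.

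Of the 5 initiation factors that contact PAB proteins, salt in wild type called 2 higher and 2 lower, and 0 higher and 3 lower on library totals. EIF4B1, an RNA-binding initiation factor, was one of the higher genes, at 0.18 (adjusted p = 0.00478), and was at 0.03 on library totals (adjusted p = 0.655). The scaffold paralogs eIFiso4G1 and eIFiso4G2 were lower, by −0.29 ± 0.0435 (adjusted p = 1.61e-07) and −0.48 ± 0.0563 (adjusted p = 6.68e-10). In heat in wild type 4 of 5 were higher and 0 lower after TMM (median 0.63, all genes −0.10), and 2 higher and 3 lower on library totals. eIFiso4G2 had the largest called change of this list in heat, at 3.12 ± 0.0520 (adjusted p = 1.48e-47) and 2.21 on library totals. Between the genotypes, these factors were higher in exa1-1 for 2 of 5 in NaCl and 1 in MS, and for 4 at 39 °C and 3 at 23 °C, with 0 lower in each. Of all genes 15.3% were higher in NaCl, 16.5% in MS, 15.2% at 39 °C and 17.1% at 23 °C. On library totals the counts higher were 2 in NaCl, 2 in MS, 3 at 39 °C and 3 at 23 °C. Other lists differed by genotype too. Of the 11 RBP45, RBP47 and oligouridylate-binding genes described below, 6 were higher in exa1-1 and 1 lower at 23 °C. At 39 °C 5 were higher and 0 lower (3 and 0 on library totals). Of the 12 tested PAM2 genes, 2 were higher and 3 lower at 23 °C, and 1 higher and 3 lower at 39 °C.

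Of 4 termination factors, 2 were higher and 0 lower with salt in wild type (1 and 1 on library totals). With heat in wild type 2 were higher and 2 lower after TMM (1 and 2 on library totals). The release factor ERF1-1 was higher in both, by 0.76 ± 0.0403 with salt (adjusted p = 3.46e-20) and by 1.57 ± 0.0494 with heat (adjusted p = 2.52e-34), the second at 0.67 on library totals. Of the 3 LARP1 genes, whose products bind messages near cap and tail, salt called 2 higher and 0 lower after TMM, and 1 higher and 1 lower on library totals, with LARP1b at 0.24 (adjusted p = 0.00224) after TMM and 0.09 on library totals (adjusted p = 0.234). In heat in wild type LARP1b was higher, by 1.58 ± 0.0705 (adjusted p = 3.37e-27) and 0.67 on library totals. LARP1a was lower, by −1.09 ± 0.0532 (adjusted p = 1.45e-25) and −2.0 on library totals. LARP1c was lower too, by −0.33 ± 0.0671 (adjusted p = 1.83e-05) and −1.24 on library totals. In exa1-1 heat gave 1.98 for LARP1b, −0.63 for LARP1a and 0.02 for LARP1c after TMM. The heat by genotype interaction called all 3 higher, against 8.78% of all genes after TMM and 6.63% on library totals.

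Genes that shorten or build the tail were mixed. Of 8 deadenylases, salt in wild type called 1 higher and 3 lower (0 and 6 on library totals), and heat 4 higher and 3 lower after TMM (1 and 7 on library totals). CAF1a, a catalytic subunit of the CCR4-NOT complex, was lower in heat by −3.86 ± 0.229 (adjusted p = 7.41e-22), and AT2G32070, listed with the same subunit family, was higher by 2.36 ± 0.0536 (adjusted p = 5.17e-41) and 1.45 on library totals. Of 3 tested poly(A) polymerases, salt called 2 higher and 0 lower (2 and 1 on library totals), and heat 1 higher and 2 lower after TMM (0 and 3 on library totals). Of 11 RBP45, RBP47 and oligouridylate-binding genes, whose products share stress granules with PAB proteins, salt called 3 higher and 5 lower (1 and 7 on library totals), among the lower ones RBP47A at −0.62 ± 0.0439 (adjusted p = 3.48e-16) and RBP47B at −0.63 ± 0.0422 (adjusted p = 7.57e-17). In heat 8 of these 11 were higher and 3 lower after TMM (median 0.66), and 1 higher and 8 lower on library totals.

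Across the 24 libraries the abundant members followed each other. Pearson's r of log2 CPM was 0.90 for PAB2 and PAB8 and 0.84 for PAB4 with either. Among 15394 other genes, those most like PAB2 were EMB1270 (r = 0.96) and LPA66 (r = 0.95), both pentatricopeptide repeat proteins. The most like PAB4 were AT3G45400, an exostosin family gene (r = 0.95), and ATMS1, a methionine synthase (r = 0.95). The most like PAB8 were AT3G11130, clathrin heavy chain 1 (r = 0.96), and AT2G48100, an exonuclease family gene (r = 0.96). These points share libraries, the TMM scaling over all 24 and the shift between the experiments, so r is given as a description. AT3G11130, for example, averaged 416 ± 6.20 CPM in exa1-1 at 39 °C and 297 ± 6.19 CPM in wild type at 39 °C, and 238 ± 6.42 CPM in exa1-1 in NaCl and 209 ± 0.855 CPM in wild type in NaCl.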

How the data were processed

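Polysome-bound mRNA of 24 libraries, 3 per group, was sequenced strand-specifically and paired-end. The submitters' processing notes name the build TAIR10, HTSeq 0.6.1p1 and HISAT2 2.0.4; strand and overlap settings of the counting are not given in the sources used here. Raw counts of 32833 genes were deposited by the authors, with FPKM, on the scale of library totals, for the 27683 that have a count. Groups were read from the sample titles.

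Counts were analysed with edgeR 4.0.16 in R 4.3.3 by filterByExpr (minimum count 10, minimum total 15), TMM scaling and robust quasi-likelihood tests, fitting the 12 libraries of each experiment together, and all 24 where controls were compared. There were 12 comparisons and 1 added later, and adjusted p-values are Benjamini-Hochberg over all genes tested. Alternatives were RLE, library totals alone, DESeq2 1.42.0, limma 3.58.1 on log2(FPKM + 1) or log2(FPKM + 0.1), no filter, 1 CPM in 6 libraries, a replicate block, other sets of libraries and leaving out each library. The tests were checked on counts simulated from the salt fit, with changes given to genes above 1 CPM. The heat fit and its shift between scalings were not simulated. Of the residual correlations between same-numbered libraries, 0 of 42 exceeded 0.1. The 6 members and the 9 gene lists were chosen with earlier results of these data known. Named were the members, EXA1, of each list up to 3 genes with the largest change among those called in wild-type salt and heat, and, per abundant member, the 2 genes with the highest r and at least 5 CPM (prior count 2). Motif letters, coding identity and windows of 50 bases came from RefSeq TAIR10.1 with Biopython 1.88. Tables and figures used Python 3.11.15, pandas 2.3.3, numpy 2.4.6, scipy 1.17.1 and matplotlib 3.10.9.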

Additional observations from a re-analysis of the deposited data

Results flagged for a closer look

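Differences between effects passed a test of the difference itself in edgeR for 5 values, with adjustment over all genes. The salt response of PAB2 differed between the genotypes by −0.28 on the log2 scale (exa1-1 minus wild type, adjusted p = 0.000485), with salt lower in 3 of 3 libraries in each genotype. The salt response of PAB5 differed by 1.85 (adjusted p = 0.0387) on 4 to 29 reads per NaCl library. On leaving out each library its adjusted p was between 0.00717 and 0.183. It was not called in the fit of all 24 libraries (adjusted p = 0.0784) or in either limma fit, and DESeq2 gave it no adjusted p. The difference between exa1-1 and wild type was larger at 23 °C than in MS by 0.20 for PAB2 (adjusted p = 0.00969), 0.35 for PAB4 (adjusted p = 3.35e-06) and 0.33 for PAB8 (adjusted p = 7.86e-06), a comparison chosen after seeing the data. Here PAB2 was not called on library totals (adjusted p = 0.183) or in either limma fit (adjusted p = 0.263 and 0.289). At 23 °C and in MS all 3 exa1-1 libraries were above all 3 wild-type libraries for these 3 genes. The summed seed markers (3 genes) were at 12.5 to 13 FPKM in exa1-1 against 3.1 to 4.47 in wild type at 23 °C, and at 1.01 to 1.11 in exa1-1 against 1.31 to 2.11 in wild type in MS. The markers of root and leaf also differed between these groups, and the part of all these markers in the differences was not tested.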

How the results depend on the processing

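Of 1064 member values under the alternatives, 942 kept direction and side of the threshold, 32 lost a call, 17 gained one and 73 changed sign. Of these 73, 24 were called after TMM or under the alternative, and all 24 came from scaling on library totals, in edgeR or through FPKM. In heat the median of all genes was −1.05 in exa1-1 and −1.0 in wild type on library totals, −0.71 and −0.69 in limma on log2(FPKM + 1), and −1.01 and −0.97 on log2(FPKM + 0.1). For 23 °C against MS in exa1-1 it was −0.33, −0.25 and −0.32. The cause of the reversals was not tested. The heat values for PAB2, PAB4 and PAB8 were −0.63, −0.74 and −0.84 in exa1-1 and −0.62, −0.67 and −0.67 in wild type on library totals. In limma on log2(FPKM + 1) they were −0.63, −0.73 and −0.83 in exa1-1 and −0.62, −0.65 and −0.66 in wild type, and on log2(FPKM + 0.1) −0.63, −0.73 and −0.84 in exa1-1 and −0.62, −0.66 and −0.67 in wild type. For 23 °C against MS in exa1-1, PAB2 was −0.13 under all 3 and PAB8 was −0.083, −0.082 and −0.083.

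The other 49 sign changes were of values called under neither, 18 of PAB5, 25 of PAB7 and 6 of PAB2. On library totals, log2(FPKM + 1) and log2(FPKM + 0.1), heat gave −0.18, −0.024 and −0.055 for PAB5 in exa1-1, −0.87, −0.055 and −0.24 for PAB5 in wild type, and −0.49, −0.080 and −0.31 for PAB7 in exa1-1. In the same order PAB2 was −0.0092, −0.012 and −0.012 in the heat by genotype interaction, and PAB7 −0.089, −0.0023 and −0.036 in the genotype difference at 23 °C against that in MS, where RLE gave −0.0033 and DESeq2 −0.0084. PAB7 with salt in exa1-1 was −0.030 on library totals and −0.0060 on log2(FPKM + 1), PAB5 in exa1-1 against wild type in MS was 0.054 on log2(FPKM + 0.1), and PAB5 with heat in wild type was −0.014 with no filter. On leaving out each library, PAB7 ranged from −0.28 to 0.58 with salt in exa1-1, −0.28 to 0.049 with salt in wild type and −0.15 to 0.71 in their difference, and in exa1-1 against wild type from −0.65 to 0.14 in MS, −0.37 to 0.36 in NaCl, −0.51 to 0.18 at 23 °C and −0.36 to 0.44 for 23 °C against MS. PAB5 ranged from −0.45 to 1.44 with heat in wild type, −0.71 to 1.62 in the heat by genotype interaction, −1.16 to 0.23 for 23 °C against MS in exa1-1, and in exa1-1 against wild type from −0.65 to 0.27 in MS and −0.019 to 2.31 at 23 °C. PAB2 ranged from −0.025 to 0.066 in the heat by genotype interaction and −0.055 to 0.029 for 23 °C against MS in wild type.

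On library totals 4 members were called for 23 °C against MS in wild type, against 2 after TMM. The salt by genotype interaction called 1 member under the filter of 1 CPM in 6 libraries, with all 24 libraries in one fit and under DESeq2, and 1 to 3 on leaving out each library, against 2. On leaving out each library the heat by genotype interaction called 0 to 1, and 23 °C against MS in wild type 1 to 3. In the salt by genotype interaction PAB5 was the member not called with all 24 libraries in one fit, and under DESeq2 it had no adjusted p. The filter of 1 CPM in 6 libraries removed it. On library totals PAB2 and PAB5 were the members added for 23 °C against MS in wild type. Beyond this, the cause of the shifts in counts was not tested. Same-number residual correlations were −0.0339 to 0.099. Libraries of different number were not correlated for comparison, so this check cannot exclude pairing by replicate number. A replicate block called 3 members in the salt by genotype interaction, PAB4 being added at −0.16 (adjusted p = 0.0483), and changed no other call of a member. Depth limits PAB5 and PAB7, whose intervals span several-fold differences, and PAB3, which was not tested, and p-values rest on 3 libraries per group.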
